A study of Caenorhabditis elegans with 2 samples.

Results

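The aminoacyl-tRNA synthetase genes of Caenorhabditis elegans were examined for binding of F23B12.7, a protein recovered through a GFP tag in chromatin immunoprecipitation followed by sequencing (ChIP-seq). The genes were all protein-coding genes in the Ensembl annotation of build WBcel235 (ce11) whose name is 1 lower-case letter, ars and a number. This rule found 32 of the 19973 nuclear protein-coding genes. Of these, 16 encode cytosolic enzymes, 12 encode mitochondrial enzymes, and 4 (gars-1, hars-1, kars-1 and qars-1) were left without a compartment. The compartment came from the RefSeq product name for 14 genes and, where the product name states none, from knowledge of the gene for another 14. The 4 genes without a compartment have no such product name and no second gene of their amino acid under the rule. The rule also finds no second gene for cars-1, mars-1, tars-1 and wars-1, whose product names say cytoplasmic, or for vars-1, which was placed with the mitochondrial enzymes because the cytosolic valine enzyme is encoded by glp-4. By chromosome, 9 lie on I, 5 on II, 6 on III, 8 on IV, 4 on V and 0 on X.

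An aminoacyl-tRNA synthetase typically joins 1 amino acid to the tRNAs that carry it and so supplies charged tRNA to the ribosome. Cytosolic enzymes serve the translation of nuclear messages. Mitochondrial enzymes, which are also encoded in the nucleus and imported, serve the translation of the few respiratory-chain proteins encoded by mitochondrial DNA.

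The study had 1 group, sampled as 2 biological replicates: whole young adult hermaphrodites of strain OP429, with the genotype unc-119(tm4063) III; wgIs429. This is a stable transgenic line in which F23B12.7 carries a GFP-FLAG tag at its C-terminus, and every sample carries both the transgene and the unc-119 allele. Chromatin was sonicated and precipitated through the GFP tag, and whole animals give 1 value over all tissues. Neither the promoter that drives the fusion nor the control for peak calling is described in the sources used here, and peak lists hold no expression values against which the labelled stage could be checked.

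The lists used were of 4 kinds. For replicate 1, for replicate 2 and for their pooled reads the authors deposited 30000 peaks and background regions each, and they deposited 1707 peaks that passed a threshold on the irreproducible discovery rate (IDR). Of the IDR peaks, 1684 were nuclear. The strength of a peak is the authors' signal value, which was compared within a list only, and ranks run from 1 for the strongest peak of a list. Depth is unknown, since the lists hold no read totals. The gene of the tagged protein had no IDR or pooled summit within 500 bp of its own start, and F23B12.7 was at signal 13.5 (rank 5682) in replicate 1 and 6.76 (rank 11397) in replicate 2.

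A gene was counted as having a peak when a summit lay within 500 bp of its annotated start. In the IDR list this held for 3 of the 32 synthetase genes (9.38%), beside 6.72% of all nuclear protein-coding genes. These were ears-2, the mitochondrial glutamyl-tRNA synthetase, vars-1, the mitochondrial valyl-tRNA synthetase, and yars-2, the mitochondrial tyrosyl-tRNA synthetase. By class this was 3 of 12 mitochondrial genes (25%), 0 of 16 cytosolic genes and 0 of the 4 genes without a compartment. The class of vars-1 and of yars-2 rests on knowledge of the gene. By product names alone the counts were 1 of 4 mitochondrial genes (ears-2) and 0 of 10 cytosolic genes. Of the 9 genes with no second gene of their amino acid under the rule, 1 (vars-1) had an IDR peak. Genes are not replicates of a condition and there was 1 group, so the difference between the classes was not tested.

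The sequences around the summits of ears-2 and vars-1, the synthetase genes with the strongest peaks, are shown first, with 50 bases on each side of the summit, 5′ to 3′ on the strand of the gene, from the RefSeq genome sequence of build WBcel235 (ce11). The ears-2 window is chrIV:390444-390544 on the minus strand and the vars-1 window is chrV:8031325-8031425 on the plus strand. Capitals mark GCGC, which was picked out after these sequences had been seen, and CCAAT on either strand.
ears-2: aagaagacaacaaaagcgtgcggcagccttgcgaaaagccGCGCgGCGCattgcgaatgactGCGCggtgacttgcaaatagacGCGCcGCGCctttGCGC
vars-1: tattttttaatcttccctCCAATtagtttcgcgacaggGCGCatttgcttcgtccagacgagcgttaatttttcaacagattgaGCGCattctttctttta
The ears-2 window holds 6 copies of GCGC and has 60.4% G + C. The vars-1 window holds 2 copies of GCGC and 1 CCAAT, at 39.6% G + C.

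For comparison, windows are shown from 4 synthetase genes with a pooled summit and no IDR peak: sars-2 (mitochondrial seryl-tRNA synthetase) and dars-1 (cytosolic aspartyl-tRNA synthetase), which hold GCGC, and mars-1 (cytosolic methionyl-tRNA synthetase) and qars-1 (glutaminyl-tRNA synthetase), which had the highest pooled signal without an IDR peak and hold neither motif. They are chrIV:4357414-4357514 on the plus strand, and chrIII:9491292-9491392, chrIV:11635709-11635809 and chrIV:15013607-15013707 on the minus strand.
sars-2: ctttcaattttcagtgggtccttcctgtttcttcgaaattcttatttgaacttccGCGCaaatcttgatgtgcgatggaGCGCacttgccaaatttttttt
dars-1: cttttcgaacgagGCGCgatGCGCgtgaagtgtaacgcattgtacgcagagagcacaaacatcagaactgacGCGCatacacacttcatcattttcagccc
mars-1: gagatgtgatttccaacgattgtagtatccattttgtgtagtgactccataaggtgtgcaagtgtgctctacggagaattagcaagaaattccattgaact
qars-1: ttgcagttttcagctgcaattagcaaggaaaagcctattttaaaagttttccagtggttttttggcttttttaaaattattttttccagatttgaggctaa
The sars-2 window holds 2 copies of GCGC and the dars-1 window 3, so copies of this motif were also present at summits that did not reach the IDR list.

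The peak at ears-2 was the strongest of the synthetase genes. The gene lies at chrIV:388686-390468 on the minus strand, and the IDR peak at chrIV:390316-390671 has its summit at 390494, 26 bp upstream of the start. Its signal was 86.2 in the pooled and IDR lists (rank 224 in both). At ears-2 the signal was 49.998 (rank 264) in replicate 1, with the summit again 26 bp upstream, and 35.4 (rank 245) in replicate 2, with the summit 2 bp upstream. The authors' q-value in the pooled list was 0.00211. The peak stood among the 300 strongest regions in each replicate. The start of uncp-18, transcribed in the opposite direction, lies 66 bp from the same summit, so the peak cannot be given to ears-2 alone.

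The peak at vars-1 was second. The gene lies at chrV:8031411-8035025 on the plus strand, and the IDR peak at chrV:8031197-8031552 has its summit at 8031375, 36 bp upstream of the start. Its signal was 71.6 (rank 375) in the pooled and IDR lists, with a q-value of 0.00211. At vars-1 the signal was 41.8 (rank 469) in replicate 1, with the summit 68 bp upstream, and 33.0 (rank 294) in replicate 2, with the summit 36 bp upstream. The rank was again high in both replicates. On the same strand oma-2 ends 196 bp upstream of vars-1, so the summit lies between these genes.

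The peak at yars-2 was the weakest of the 3. The gene lies at chrIV:4710861-4712624 on the minus strand, and the IDR peak at chrIV:4712398-4712753 has its summit at 4712576. This is 48 bp downstream of the outermost start and upstream of the other 4 annotated transcript starts, by 23, 62, 64 and 185 bp, within the annotated 5′ UTR of the transcript with the outermost start. Its signal was 41.6 (rank 1444) in the pooled and IDR lists, with a q-value of 0.00242, beside a lowest nuclear IDR signal of 38.0. At yars-2 the signal was 24.8 (rank 1674) in replicate 1 and 13.3 (rank 2934) in replicate 2. Its rank in replicate 2 was thus lower than that of either stronger gene. The signal was also below the median of 52.2 over nuclear IDR peaks, which ears-2 and vars-1 exceeded. On the same strand miro-1 ends 200 bp upstream of yars-2. The yars-2 window holds 1 GCGC at 39.6% G + C.

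The cytosolic genes fars-1 and rars-1 had no IDR summit within 500 bp but had one between 500 and 1000 bp from the start, nearer to another gene. For fars-1, which encodes a subunit of the cytosolic phenylalanyl-tRNA synthetase, a summit of signal 71.2 lay 921 bp upstream, but the nearest start was rbm-5, at 121 bp. A further IDR summit lay inside the fars-1 gene, more than 1000 bp from its start. For rars-1, the cytosolic arginyl-tRNA synthetase, a summit of signal 52.8 lay 978 bp upstream, and the nearest start was rpb-8, at 147 bp. On the same strand rpb-8 ends 65 bp before rars-1 begins. Both upstream summits were found in each replicate, at ranks 352 and 584 for the one upstream of fars-1 and 1629 and 626 for the one upstream of rars-1. With a limit of 1000 bp the count became 5 of 32 genes, of which 2 were cytosolic, beside 8.47% of all nuclear protein-coding genes. With a limit of 250 bp it was 3 genes, ears-2, vars-1 and yars-2, beside 4.21% of all genes. In a chain of same-strand neighbours, genes overlap or have gaps of at most 500 bp. A summit at the start of a gene further up such a chain was then also accepted, a choice made after the data were seen. With it 4 of 32 genes (12.5%) were counted, rars-1 being the addition, beside 10.2% of all genes.

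The pooled list, which reaches far below the IDR threshold, had a summit at 24 of the 32 synthetase starts (75%), beside 37.2% of all nuclear protein-coding genes. With a limit of 250 bp this was 15 genes, beside 24.8%, and with 1000 bp 26 genes, beside 48.5%. The classes were 11 of 16 cytosolic genes (68.8%), 10 of 12 mitochondrial genes (83.3%) and 3 of the 4 genes without a compartment. The pooled summit reached a q-value under 0.05 at 11 of 32 genes (34.4%), beside 12.3% of all genes: 4 of 16 cytosolic, 4 of 12 mitochondrial and 3 of the 4 genes without a compartment. The share with a pooled summit was therefore further above its background than the share with an IDR peak, but no test was made of either, and a pooled summit can be a background region.

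**Figure D1:**
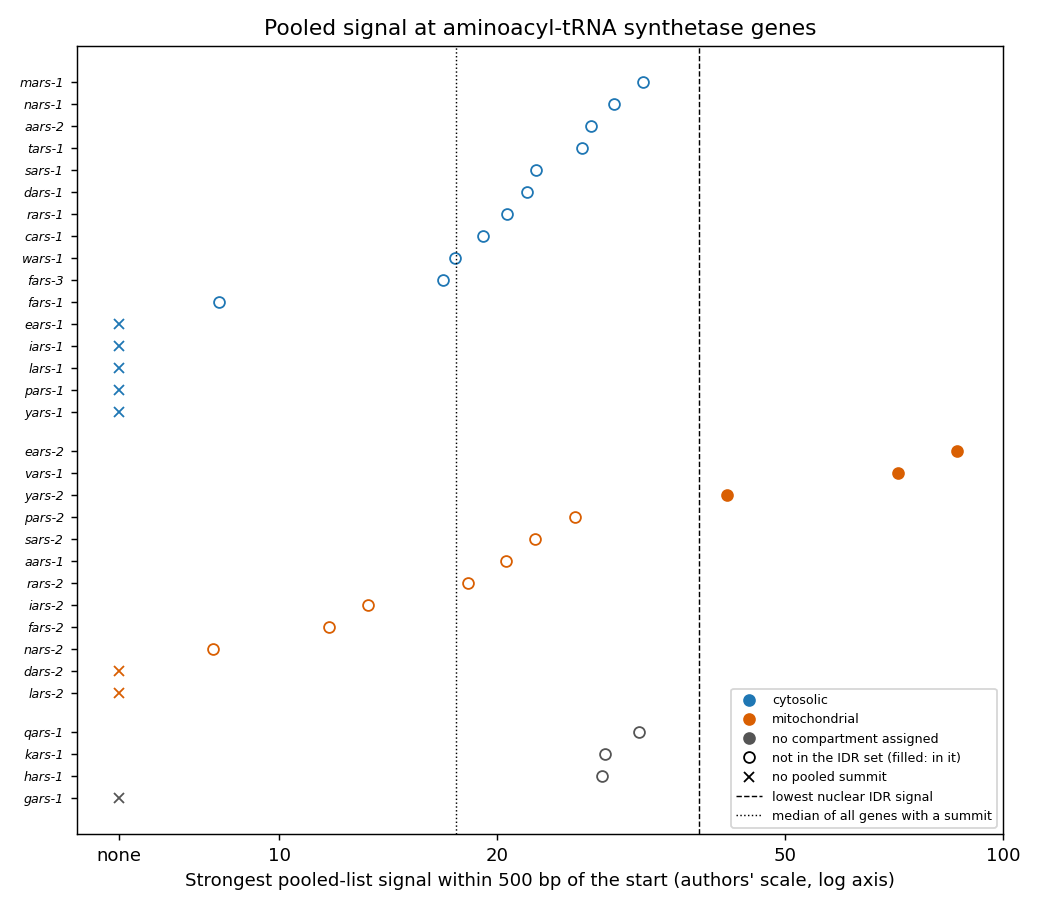
Pooled-list signal (authors' scale) of the strongest summit within 500 bp of each of the 32 synthetase starts, by class, with filled points for genes in the IDR set. The 3 filled points, at 41.6 to 86.2, are mitochondrial genes, and the other genes with a summit reach at most 31.8 in any class.

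Cytosolic and mitochondrial genes had close medians in the pooled list. The strongest pooled signal ran from 8.26 to 31.8 with a median of 22.0 over the 11 cytosolic genes with a summit, and from 8.11 to 86.2 with a median of 21.5 over the 10 mitochondrial genes. With genes lacking a summit set to 0, the medians were 18.3 over all 16 cytosolic and 19.4 over all 12 mitochondrial genes. The median over all 7433 genes with a summit was 17.5, and 18 of the 24 synthetase genes with one lay above it, 8 cytosolic, 7 mitochondrial and 3 without a compartment. The classes overlapped except for the 3 mitochondrial genes in the IDR list.

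Among cytosolic enzymes, mars-1 had the highest pooled signal, 31.8 (rank 2460), with 16.6 in replicate 1 and 9.46 in replicate 2. Next came nars-1, the asparaginyl-tRNA synthetase, at 29.0, and aars-2, the alanyl-tRNA synthetase, at 26.9. The threonyl-tRNA synthetase gene tars-1 was at 26.2, with its summit 294 bp inside the gene. The pooled signal was 22.7 at sars-1, which charges tRNA with serine, 22.0 at dars-1, 20.7 at rars-1, and 19.2 at cars-1, the cysteine enzyme. It was 17.5 at wars-1, the tryptophan enzyme, with its summit 484 bp inside the gene, near the distance limit. At fars-3, a subunit of the phenylalanyl enzyme, the pooled signal was 16.8. The lowest was fars-1 at 8.26, with its summit 498 bp inside the gene, close to the distance limit. No pooled summit was found at ears-1, iars-1, lars-1, pars-1 or yars-1, the cytosolic enzymes for glutamate, isoleucine, leucine, proline and tyrosine.

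Among mitochondrial enzymes, the weakest IDR gene was yars-2 at a pooled signal of 41.6. The lowest nuclear IDR signal was 38.0, so a gap below the IDR genes is partly set by the IDR threshold. The highest of the remaining 7 with a summit was pars-2, the prolyl-tRNA synthetase, at a pooled signal of 25.6, followed by sars-2 at 22.5 and aars-1, the alanyl-tRNA synthetase, at 20.6. The pooled signal was 18.2 at rars-2 (arginine), 13.3 at iars-2 (isoleucine), 11.7 at fars-2 (phenylalanine) and 8.11 at nars-2 (asparagine). No pooled summit was found at dars-2 (aspartate) or lars-2 (leucine).

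Of the genes without a compartment, 3 had a pooled summit, at a signal of 31.4 for qars-1, 28.2 for kars-1 (lysyl-tRNA synthetase) and 27.9 for hars-1 (histidyl-tRNA synthetase). The glycyl-tRNA synthetase gene gars-1 had none. All 3 values were below the lowest nuclear IDR signal of 38.0, and all 3 q-values were under 0.05. The qars-1 summit lay 474 bp upstream and was nearer to the start of Y41E3.7, at 378 bp. The hars-1 summit lay 292 bp upstream and was nearer to the start of T11G6.2, at 169 bp. These signals cannot be given to qars-1 or hars-1 alone.

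For 11 amino acids both a cytosolic and a mitochondrial gene are present, and the pooled signal of the pair can be set side by side. The cytosolic gene was higher for 6 (alanine, aspartate, phenylalanine, asparagine, arginine and serine), the mitochondrial gene for 4 (glutamate, isoleucine, proline and tyrosine), and neither leucine gene had a summit. Phenylalanine has the cytosolic genes fars-3 (16.8) and fars-1 (8.26), of which the higher was taken. The mitochondrial fars-2, at 11.7, lay between them. For glutamate the values were 86.2 at ears-2 and no summit at ears-1, and for tyrosine 41.6 at yars-2 and no summit at yars-1. For serine the values were 22.7 at sars-1 and 22.5 at sars-2. The order within pairs thus went in both directions.

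The valine pair falls partly outside the naming rule. The cytosolic valyl-tRNA synthetase is encoded by glp-4, which had a pooled signal of 36.0 (rank 1914) and was not in the IDR list, beside 71.6 at vars-1. The glp-4 summit lay 486 bp upstream, near the distance limit, and the vars-1 summit 36 bp upstream. Of other synthetase genes without such a name, the prx-10 locus, whose RefSeq products include the mitochondrial tryptophanyl enzyme, had 25.5. The seryl-type gene K03B4.1 had 9.15, and Y105E8A.20, taken as mars-2 from knowledge of the gene, had no pooled summit. None of these 4 loci had an IDR peak at its start.

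In the replicates, 23 synthetase genes had a summit in the list of replicate 1, beside 37.7% of all genes, and 24 in that of replicate 2, beside 37.6%. Both lists had a summit at 19 of 32 genes (59.4%), beside 25.7% of all genes. A summit in 1 replicate list alone was found at 9 genes and in neither at 4 (ears-1, iars-1, pars-1 and dars-2), which had no summit in any of the lists. By class, 8 of 16 cytosolic, 9 of 12 mitochondrial and 2 of the 4 genes without a compartment had a summit in both. No SD is given, since signal scales may differ between lists.

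**Figure D2:**
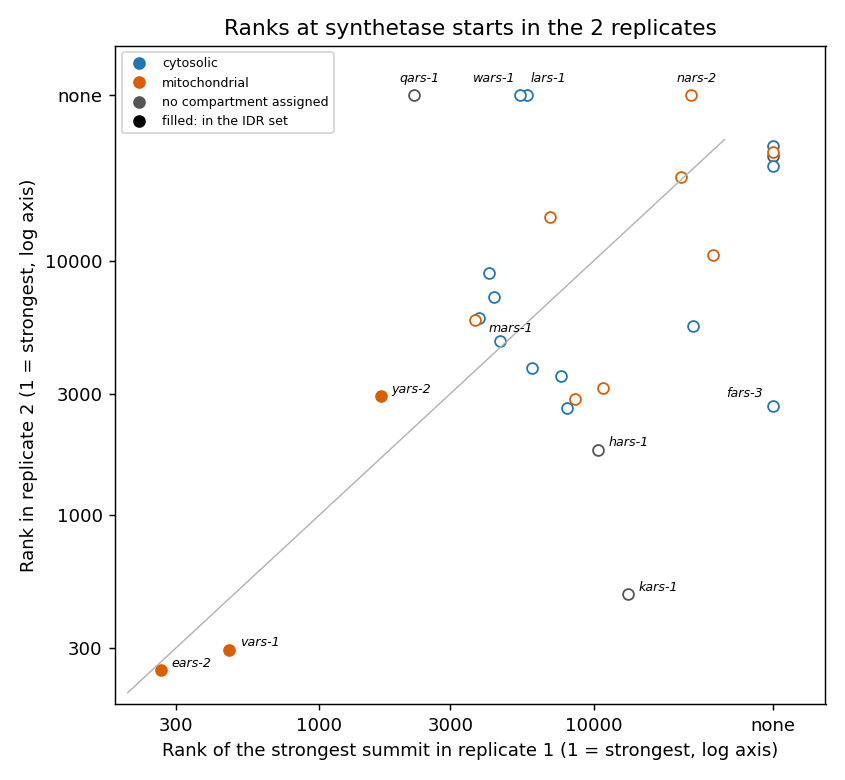
Rank of the strongest summit at each synthetase start in replicate 1 and replicate 2 (log axes, 1 is strongest, none where the list has no summit within 500 bp), with filled points for genes in the IDR set and a line of equal rank. Ranks of ears-2 and vars-1 are under 500 in both replicates, while kars-1 ranks 487 in replicate 2 and 13303 in replicate 1.

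The replicates differed most at genes outside the IDR list. The lysine gene kars-1 had a signal of 27.3 (rank 487) in replicate 2, 295 bp upstream, and 8.65 (rank 13303) in replicate 1, at a summit 102 bp upstream. The histidine gene hars-1 ranked 1806 in replicate 2 and 10371 in replicate 1. In the other direction, qars-1 had a signal of 21.8 (rank 2202) in replicate 1 and no summit within 500 bp in replicate 2. For kars-1 the ranks thus belong to different summits, and for qars-1 the summit of replicate 1, at 459 bp upstream, lies near the distance limit. Taken by rank, the strongest peaks of either replicate alone, as many as in the IDR list, both gave ears-2 and vars-1, with yars-2 as the third gene in replicate 1 and kars-1 in replicate 2.

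Pooled summits lay mostly upstream. The strongest one was upstream of the start at 16 of 24 genes and downstream at 8, with a median position of 131 bp upstream. The IDR summits of ears-2, vars-1 and yars-2 were the nearest to a start, at 26, 36 and 48 bp, and the next nearest was iars-2 at 71 bp downstream. In 19 of 24 genes the synthetase start was the coding start nearest to its pooled summit. The matching shares over all coding genes with a pooled summit are not given, so these positions are not read as particular to synthetase genes. A divergent neighbour began within 500 bp of the summit at several genes, such as ctr-9 at 54 bp from the dars-1 summit and C47E12.2 at 55 bp from the sars-1 summit. A same-strand neighbour beginning further upstream overlapped the gene or ended within 500 bp of it at 11 of the 32 genes (34.4%), beside 20.6% of all coding genes. Many worm messages are trans-spliced and some genes are transcribed in operons, so an annotated start need not be where transcription begins.

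**Figure D3:**
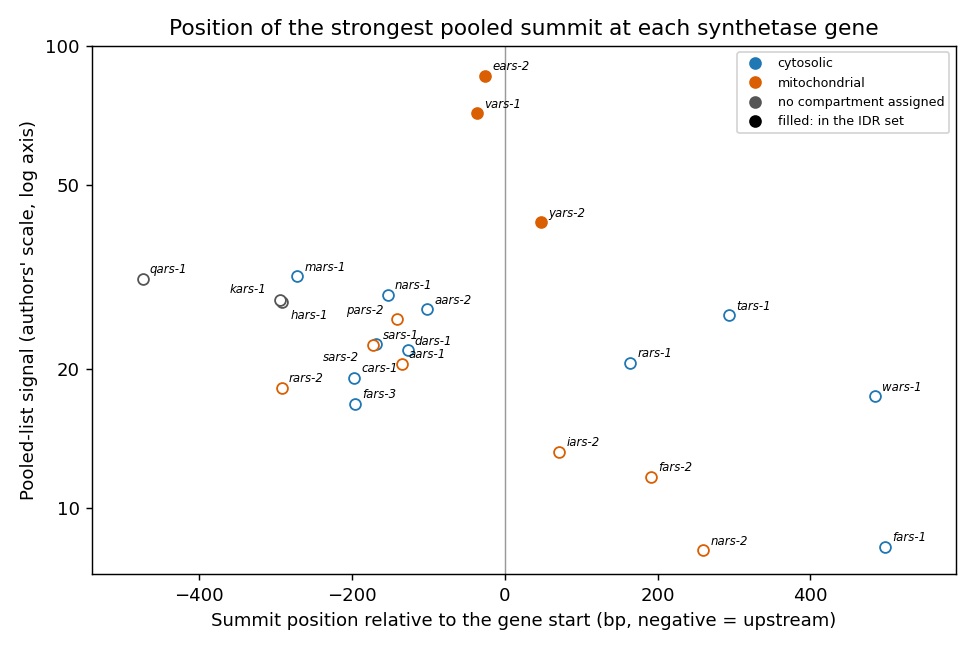
Position of the strongest pooled summit relative to the gene start (bp, negative is upstream) against its pooled signal (log axis) for the 24 synthetase genes with a summit, by class, with filled points for genes in the IDR set. The 3 filled points lie within 48 bp of the start, and 16 of the 24 summits lie upstream.

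Sequence motifs were counted in the 300 bases from 250 bp before to 50 bp after each start, on both strands. CCAAT, the core of the NF-Y site in mammals, was present at 17 of 32 synthetase promoters (53.1%) and 45.5% of all promoters. The E-box CACGTG was present at hars-1 alone (3.12%), beside 5.82%, and GAGA at 29 (90.6%), beside 90.6%. TTGCATCA, the form of the amino acid response element to which ATF4 binds in mammals, was present at iars-1 alone (3.12%), beside 1.2%. A further motif, GCGC, was added after the ears-2 and vars-1 summit windows had been seen. It reads the same on both strands and was present at 10 (31.2%), beside 28.7%: 7 mitochondrial, 3 cytosolic and 0 without a compartment. The 7 include ears-2 and vars-1. None of these shares was tested, and a match of letters is not a site.

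Within windows of 50 bases on each side of summits, GCGC was present in 3 of 3 windows of synthetase genes in the IDR list. The 3 include ears-2 and vars-1, whose windows had been seen before GCGC was picked out, so this count was partly fixed beforehand. GCGC was present in 5 of 21 windows (23.8%) of synthetase genes with a pooled summit alone. The 5 were dars-1, sars-2, kars-1, rars-1 and tars-1. Over all coding starts, GCGC was present in 60.2% of 1002 windows at IDR summits and in 18.3% of 5578 windows at pooled summits outside the IDR list. These window sets also differed in base composition, with a median G + C of 45.5% and 34.7%. Over all nuclear IDR summits, at coding starts or elsewhere, 859 of 1684 windows held GCGC at a median G + C of 45.5%. Of windows 500 bp to the left of these summits, 171 of 1684 (10.2%) held GCGC at a median G + C of 36.6%. CCAAT was present in 15.8% of nuclear IDR windows and 20.1% of windows to the left. The part of base composition in the GCGC counts was not tested. Promoters of synthetase genes had a median G + C of 33%, beside 34.3% over all promoters.

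Other genes of tRNA maturation, modification and amino acid sensing, taken by name, were set beside the synthetases. A name pattern can also take in family members that act on other RNA. Of the 18 name patterns, 5 matched no gene (adat-, atf-5, gatb, gatc and xpot). Of the 29 genes found, 3 (10.3%) had an IDR peak, beside 6.72% of all nuclear protein-coding genes. A pooled summit was found at 23 (79.3%), beside 37.2%. Their median strongest signal in the pooled list was 19.5, beside 17.5 over all genes with a summit. None of these differences was tested. The IDR peaks were at nsun-5, an RNA methyltransferase of a family that modifies ribosomal RNA and tRNA, at a signal of 63.5, and at atf-4, the worm counterpart of a stress-response factor that activates synthetase genes in mammals, at 50.8. The remaining one was popl-7, named for a subunit of the RNase P and MRP complexes that trim RNA precursors, at 44.5. Their ranks in replicates 1 and 2 were 542 and 1515 for nsun-5, 459 and 3763 for atf-4, and 1660 and 999 for popl-7. No IDR peak was found at the starts of gcn-1 and gcn-2, which act together in the response to uncharged tRNA, or of the Elongator genes elpc-1 to elpc-4.

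The tRNA genes that the synthetases serve were also compared by amino acid. An IDR summit lay within 250 bp of 294 of 612 nuclear tRNA genes (48.0%), and the share ran from 9 of 27 (33.3%) for glutamine to 19 of 27 (70.4%) for aspartate. It was 23 of 41 (56.1%) for glutamate, 14 of 31 (45.2%) for valine and 7 of 19 (36.8%) for tyrosine, the amino acids of the 3 synthetase genes with an IDR peak. These shares fell on both sides of the 48.0% over all tRNA genes. The ears-2, vars-1 and yars-2 enzymes charge mitochondrial tRNAs, which are encoded in mitochondrial DNA and are not among these genes. No nuclear tRNA gene lay within 1000 bp of any synthetase start.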

How the data were processed

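ChIP-seq peak lists of the 2 biological replicates, of their pooled reads and of the IDR step were used on build ce11. The signal of each peak is the authors' deposited value. How it was normalized is not stated. The sources used here also do not give the control, the IDR threshold, the read aligner or the program that called peaks. The authors also deposited −log10 q-values, from which q was computed. Depth is unknown, so no counting interval is given. Lists on ce10 were not used.

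Genes came from Ensembl release 115 (WBcel235). A summit, the peak start plus the deposited offset, was assigned to every start within 500 bp, and the strongest was kept. Scripts used Python 3.11.15 and numpy 2.4.6, with figures from matplotlib 3.10.9, and the assignment was checked on simulated summits.

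The members and lists were chosen with earlier results of these data known. Genes named are those with an IDR peak, those with a pooled summit, those with an IDR summit between 500 and 1000 bp, and tRNA-pathway genes with an IDR peak. Since more than 20 genes had a pooled summit, the rule keeps the 20 of highest signal; the remaining genes are named so that each is accounted for. Classes, pairs and motif shares are descriptions without tests. Alternatives were other distances, other definitions of the start and of overlap, stronger peaks, and each replicate alone.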

Additional observations from a re-analysis of the deposited data

How the results depend on the processing

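With summits within 1000 bp, IDR peaks were counted at 5 synthetase genes, 2 of them cytosolic (fars-1 and rars-1), beside 8.47% of all genes. With starts further up a same-strand chain, chosen after the data were seen, 1 cytosolic gene (rars-1) was counted. With summits within 250 bp, pooled summits were counted at 15 genes, beside 24.8% of all genes. With compartments from product names alone, added after the data were seen, 1 mitochondrial gene (ears-2) was counted, and with vars-1 left without a compartment 2 were (ears-2 and yars-2). Leaving out either replicate gave 3 genes in each case for all synthetases, 0 cytosolic genes in each case, 2 to 3 mitochondrial genes, and 23 to 24 genes with a summit in the 30000-peak list. Replicate 2 alone held kars-1 in place of yars-2. In the IDR list, the mitochondrial genes were ears-2, vars-1 and yars-2 with 250 bp, 1000 bp, the nearest start alone, any transcript start, overlap of the peak interval and the chain of starts. Peaks above the median nuclear signal kept 2 of them, ears-2 and vars-1. No paired analysis was possible because there was 1 group. Unknown depth limits what the lack of a summit can show: a gene outside a list was not detected there, which does not show that binding is absent.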

Other observations

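The atf-4 and nsun-5 peaks and 2 further tRNA-pathway genes differed in rank between the replicates. These 2, trm-2A and trmt-10A, were chosen after their values were seen. At trm-2A, named for a tRNA methyltransferase, replicate 1 had a signal of 45.7 (rank 362), with no summit within 500 bp in replicate 2 or in the pooled list. At trmt-10A, also named for a tRNA methyltransferase, replicate 1 had a signal of 24.6 (rank 1700), again with no summit in the other 2 lists.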
